A study of Mus musculus with 47 samples.

Results

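The 7 genes followed here belong to the inflammasome pathway and were measured in the RNA-seq libraries of the series. They are the sensors Nlrp3, Aim2 and Nlrc4, the adaptor Pycard, the caspases Casp1 and Casp4, and the pore-forming protein Gsdmd. The genes were chosen by symbol, 7 of 51912 genes in the tables of bone marrow-derived macrophages (BMDMs), and all 7 were listed in each of the 12 RNA-seq libraries. The other 35 of the 47 samples were not analysed here. BMDMs were grown with M-CSF from the marrow of C57BL/6 mice. WT mice were Zmynd8 fl/fl littermates without Cre, and cKO mice carried Zmynd8 fl/fl with 1 Lyz2-Cre allele, which is active in macrophages and also in neutrophils. Each genotype was left untreated (NT) or given LPS (100 ng/ml) or IL-4 (20 ng/ml) for 6 h. The other 6 libraries are labelled Raw264.7, a macrophage-like line from a male BALB/c mouse, although their strain is given as C57BL/6. In 3 of these libraries Zmynd8 had been knocked out with a lentiviral guide, without rescue (Zmynd8 KO) or with WT Zmynd8 or the D/E-A mutant put back. The labels name no treatment for these 3, while the study's text describes the WT Zmynd8 and D/E-A data as taken after LPS. In the other 3, treated with LPS, p65 (Rela) had been knocked out, without rescue (p65 KO) or with WT p65 or the K122R mutant put back. The heading of the deposited WT p65 column reads only WT and LPS, so a knockout background is given by the sample title alone. Each condition had 1 library, made in BMDMs from biological replicates that were mixed beforehand. Mouse age was not given for these cultures in the sources used here.

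An inflammasome is a platform that a sensor builds in the cytosol. NLRP3 senses membrane damage and potassium loss, AIM2 senses DNA, and NLRC4 responds to bacterial flagellin and secretion systems bound by NAIP proteins. Most sensors recruit caspase-1 through ASC, the product of Pycard, while caspase-4 (caspase-11 in mouse) binds LPS in the cytosol by itself. Both caspases cut gasdermin D, which opens pores in the plasma membrane, and caspase-1 also matures IL-1β and IL-18. In macrophages, LPS is the standard priming signal that raises the transcripts of the pathway before a further signal sets it off.

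BMDM libraries held 22597408 to 28386612 counts and the libraries labelled Raw264.7 held 15127110 to 21042628 recovered reads. Zmynd8 did not separate the BMDM genotypes, at 87.1, 79.0 and 128 CPM (counts scaled by the library total) in WT after NT, LPS and IL-4 and 81.5, 86.8 and 151 CPM in cKO. The floxed exons cannot be seen in a count per gene, so this value does not check the labels. All 7 macrophage markers were above 0 in all 6 BMDM libraries. The 5 LPS response markers summed to 10522 and 10779 CPM in the LPS libraries of WT and cKO against 67.4 and 58.2 CPM in NT, and the 5 IL-4 response markers to 2931 and 2844 CPM in the IL-4 libraries against 446 and 281 CPM in NT. Arg1, Mrc1 and Chil3 made up nearly all of the sums after IL-4, and Mrc1 nearly all of those in NT. Ccl24 was at 0.343 and 0.398 CPM in NT and at 0.564 and 0.536 CPM after IL-4, and Retnla at 0 in NT and at 2.99 and 0.191 CPM after IL-4. The 8 neutrophil markers summed to 2.33 to 4.22 CPM in the NT and LPS BMDM libraries and to 382 and 514 CPM in the IL-4 libraries of WT and cKO. The titles give the IL-4 libraries sample numbers apart from those of the NT and LPS libraries and name the same lane for all 6. What the numbers stand for is not stated, and whatever they mark cannot be told apart from IL-4. The 3 libraries labelled Zmynd8 KO Raw264.7, with and without rescue, stood apart from the 3 p65 libraries. Neutrophil markers summed to 4422 to 10353 CPM in them against at most 0.319 CPM in the p65 libraries, where 3 of the 8 were listed. B cell markers summed to 80.4 to 109 CPM against at most 0.255 CPM, and Xist, which marks female cells, reached 338 to 460 CPM against at most 0.198 CPM. Ddx3y, on the Y chromosome, was at 25.5 to 109 CPM in the p65 libraries and was not listed or at most 0.0544 CPM in the others. The labelled cell line therefore did not have the same marker genes in both sets, and all 6 are called the libraries labelled Raw264.7. Zmynd8 was at 5.75 CPM in Zmynd8 KO and at 26.4 and 27.7 CPM with WT Zmynd8 and D/E-A, although its value in Zmynd8 KO was the 1 deposited value that was not a whole number of reads. Rela was at 50.6 CPM in p65 KO, 102 CPM with WT p65 and 351 CPM with K122R.

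In resting WT BMDMs the adaptor, caspase-1 and gasdermin D were the most abundant transcripts of the pathway, and the sensors the least. On the deposited TPM scale, which divides by transcript length, WT NT held Casp1 at 96.4 TPM, Pycard at 82.0, Gsdmd at 60.4, Casp4 at 28.5, Aim2 at 27.3, Nlrp3 at 18.5 and Nlrc4 at 3.52. The order was nearly the same in cKO NT, where Pycard came first at 106 TPM and Casp1 followed at 75.4 TPM. With 1 library per condition the order has no spread of its own, and the neighbours Casp4 and Aim2, as well as Casp1 and Pycard, changed by more between the genotypes than they differed from each other in WT NT. After LPS both caspases led in each genotype, with Casp1 at 499.6 TPM in WT and 455 TPM in cKO and Casp4 at 395 and 337 TPM. Nlrc4 was the lowest of the 7 in every BMDM library, at 2.27 to 11.5 TPM.

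All 7 genes were called higher after LPS in the fit over both genotypes, although Nlrc4 and Pycard missed the threshold when scaled to library totals. Casp4, the cytosolic LPS receptor, rose most, followed by Casp1, Aim2 and Gsdmd, and then by Nlrp3, Nlrc4 and Pycard with smaller increases. Casp4 went from 20.8 CPM in WT NT and 15.3 CPM in cKO NT to 281 CPM in WT LPS and 229 CPM in cKO LPS. Both LPS libraries lay far above both NT libraries, and the fitted log2 fold change was 4.48 with a standard error of 0.32 (edgeR quasi-likelihood test, adjusted p = 0.00020). Casp1 went from 85.4 CPM (WT) and 80.1 CPM (cKO) to 463 and 398.5 CPM. Its fitted log2 fold change was 3.03 ± 0.26 (SE, adjusted p = 0.00030), again with no overlap between the treatments. Aim2 stood at 22.5 and 16.9 CPM before LPS and at 72.4 and 70.6 CPM after it. Its fitted change was 2.52 ± 0.23 (SE, adjusted p = 0.00039). Gsdmd, the executioner of the pathway, stood at 71.7 and 59.4 CPM before and at 213 and 189 CPM after LPS. Its fitted change was 2.27 ± 0.19 (SE, adjusted p = 0.00030).

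**Figure D1:**
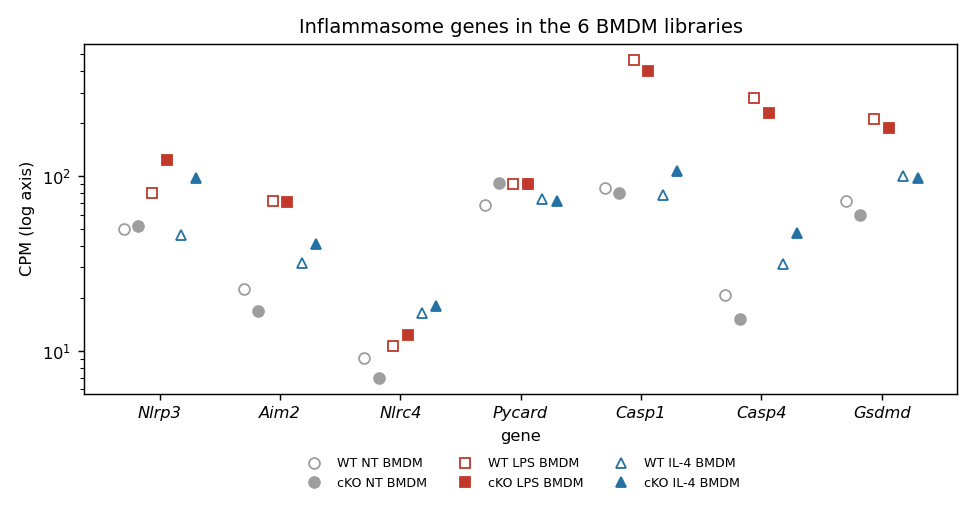
CPM of the 7 genes (log axis) in the 6 BMDM libraries, 1 point per library, with open symbols for WT and filled symbols for cKO. Casp4 and Casp1 in the LPS libraries, at 229 to 463 CPM, stand apart from all NT and IL-4 values of the same genes, and Nlrp3 in cKO IL-4 lies at 97.1 CPM against 46.2 CPM in WT IL-4.

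The remaining 3 genes rose less, and for a pair of them the call depended on how the libraries were scaled. Nlrp3 went from 49.6 CPM in WT NT and 52.0 CPM in cKO NT to 80.2 and 123 CPM after LPS, a fitted log2 fold change of 1.60 ± 0.26 (SE, adjusted p = 0.0029). Nlrc4 was at 9.08 and 6.99 CPM before and at 10.6 and 12.3 CPM after LPS, with a fitted change of 1.16 ± 0.22 (SE, adjusted p = 0.0057). Pycard was at 68.6 and 90.9 CPM before and at 90.4 and 89.5 CPM after LPS. The NT and LPS libraries of Pycard overlapped on this scale, and its fitted change was 0.83 ± 0.20 (SE, adjusted p = 0.014). The fitted values lie above the ratios of CPM because TMM scaling, which assumes that most genes do not change, gave the LPS libraries factors of 0.700 and 0.722 against 1.13 and 1.11 for NT. Scaled to library totals instead, the median gene fell by 0.58 on the log2 scale in WT and by 0.55 in cKO after LPS. On that scale the fitted changes were 0.51 for Nlrc4 (adjusted p = 0.091) and 0.18 for Pycard (adjusted p = 0.44), and the other 5 genes stayed past the threshold. Without the WT LPS library, Pycard also missed it, at 0.71 (adjusted p = 0.079). Of 13074 genes tested, 25.1% were called higher and 25.7% lower after LPS, against 7 of 7 higher here. Scaled to library totals, 1921 genes were called higher and 6240 lower, against 3283 and 3354 with TMM.

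Most genes of the 5 neighbouring lists were also called higher after LPS. Among guanylate-binding proteins and relatives, which strip bacteria and expose their LPS to caspase-4, 7 of 7 tested rose, with a median log2 fold change of 6.00 against -0.03 over all genes. Gbp5 went from 21.1 CPM (WT) and 4.56 CPM (cKO) to 1946 and 2214 CPM (log2 fold change 7.99, adjusted p = 0.0014), and Gbp2 from 99.5 and 28.6 CPM to 5262 and 5189 CPM (7.04, adjusted p = 0.00096). Gbp2b had 0 counts in both NT libraries and 9.96 and 22.7 CPM after LPS, at least 87.0-fold higher in WT and at least 171-fold higher in cKO than the 3 counts per library that 0 allows. Placed at those bounds it stayed above the median. Of 24 other sensors and nucleators tested, 19 rose and 0 fell, led by the PYHIN family members Ifi205 (6.19), Ifi214 (5.78) and Ifi208 (5.75 on the log2 scale). Of 18 triggers and regulators of assembly tested, 13 rose and 2 fell, and Irf1, an interferon-response activator, was the highest (4.78, adjusted p = 0.00021), before Tnfaip3 (2.67). Of 13 other death genes tested, 10 rose and 1 fell, with Zbp1, a sensor of Z-form nucleic acid, at 3.99. The last list, called the IL-1 and IL-18 list here, holds Il1b, Il18, Il1a, Il1rn and Il18bp, and 5 of 5 rose. Il1b went from 1.60 and 1.42 CPM to 65.3 CPM in WT and 177 CPM in cKO (6.76), Il1a rose by 5.44, and Il1rn, the receptor antagonist, rose by 4.67. Members of the Gbp and Ifi families have near copies of each other, so their separate values are uncertain.

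The promoters of 6 of the 7 genes were found in the RefSeq annotation of GRCm38.p6, and Gsdmd was not among them. They had 8 entries, as Casp4 and Nlrp3 have 2 each, and the first Casp4 entry is shown. The 250 bases before the start of each entry, which is not always the end of the gene interval, were searched on both strands for GGGANTTTC and GGGANTTCC, both forms of the NF-κB site, for GAAANNGAA, the core of the interferon-stimulated response element, and for GAGGAAGT, a site of the macrophage factor PU.1. The windows of Casp4, Aim2 and Pycard are shown because they held a match, given in capitals.
Casp4: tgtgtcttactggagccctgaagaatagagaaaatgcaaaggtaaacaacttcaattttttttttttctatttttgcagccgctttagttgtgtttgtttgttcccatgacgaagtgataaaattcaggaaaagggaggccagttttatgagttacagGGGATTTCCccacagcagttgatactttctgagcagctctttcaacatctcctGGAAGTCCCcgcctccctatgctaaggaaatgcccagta
Aim2: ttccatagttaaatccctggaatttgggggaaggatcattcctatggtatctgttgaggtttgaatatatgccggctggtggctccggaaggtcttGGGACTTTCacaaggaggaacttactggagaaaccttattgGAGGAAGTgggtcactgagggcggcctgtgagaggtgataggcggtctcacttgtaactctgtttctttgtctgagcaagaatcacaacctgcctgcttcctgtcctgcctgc
Pycard: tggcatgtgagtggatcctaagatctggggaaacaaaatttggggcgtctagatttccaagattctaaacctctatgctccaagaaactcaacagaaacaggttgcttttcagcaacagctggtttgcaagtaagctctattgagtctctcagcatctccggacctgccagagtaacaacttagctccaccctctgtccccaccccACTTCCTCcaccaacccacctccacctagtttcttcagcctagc
The Casp4 window (chr9:5308599-5308848, plus strand) held GGGANTTCC on either strand, starting 92 and 39 bases before the start, a motif found in 1.43% of 32851 windows of this length. The Aim2 window (chr1:173420354-173420603, plus strand) lies inside the interval that RefSeq gives the gene. It held GGGANTTTC, found in 0.941% of windows, 154 bases before the start of its entry and GAGGAAGT, found in 2.44%, 113 bases before it. The Pycard window (chr7:127993868-127994117, minus strand) held only GAGGAAGT, on the strand opposite to the gene. None of the 4 motifs was found in the windows of Nlrp3, Nlrc4 and Casp1, and GAAANNGAA, found in 7.13% of windows, was in none of the 6 promoters. No matches overlapped. A match describes these letters and not a bound site. Casp1 (chr9:5298517-5307281) and Casp4 (chr9:5308849-5336791) are neighbours on chromosome 9. The others lie apart in GRCm38.p6, Aim2 at chr1:173349547-173466040, Pycard at chr7:127991373-127993867, Nlrp3 at chr11:59541569-59566955, Gsdmd at chr15:75862144-75867408 and Nlrc4 at chr17:74426255-74459144. The Aim2 interval overlaps Cadm3 and that of Nlrc4 overlaps the pseudogene Gm4708, so reads in the shared stretches could belong to either.

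After IL-4, 1 of the 7 genes was called, against 7 after LPS, although LPS and IL-4 were not tested against each other and Nlrc4 had higher CPM after IL-4 than after LPS. Nlrc4 was the gene past the threshold, at 9.08 and 6.99 CPM in NT and 16.4 and 18.03 CPM after IL-4, with no overlap and a fitted log2 fold change of 0.93 ± 0.22 (SE, edgeR adjusted p = 0.029). Without cKO NT, WT IL-4 or cKO IL-4 that call was lost, with adjusted p of 0.067, 0.13 and 0.25. Over all genes, 10.6% were called higher and 10.2% lower after IL-4, and the counts were 1390 and 1328 with TMM but 1764 and 986 when scaled to library totals. Casp4 went from 20.8 to 31.4 CPM in WT and from 15.3 to 47.1 CPM in cKO, for a fitted change of 0.96 ± 0.29 (SE, adjusted p = 0.060), and Aim2 was at 0.71 ± 0.22 (SE, adjusted p = 0.068). The NT and IL-4 libraries did not overlap in CPM for these genes. Over the 10 alternatives tried, Casp4 was called in 7 and Aim2 in 5, with adjusted p of 0.015 to 0.62 and 0.011 to 0.63. With 1 library left out Casp4 ranged from 0.46 to 1.42 and Aim2 from 0.42 to 1.01, both lowest without cKO IL-4, and without cKO NT Aim2 was at 0.45. Gsdmd (0.43), Nlrp3 (0.23), Casp1 (-0.02) and Pycard (-0.29) had adjusted p of 0.15 to 0.97. Neutrophil markers were higher in both IL-4 libraries, as given above, and their part in these values was not tested.

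Around the 7 genes, a few transcripts differed strongly between the IL-4 and the NT libraries. The neutrophil markers and the sample numbers differed between the same libraries, and their part was not tested. As background, 10.6% of all genes were called higher and 10.2% lower, and the shares of triggers called lower, of death genes and of guanylate-binding proteins lay near these. Of 24 other sensors and nucleators, 5 rose and 0 fell. Mefv, which encodes the sensor pyrin, went from 4.04 and 3.05 CPM to 55.6 CPM in WT and 102 CPM in cKO (log2 fold change 4.24, adjusted p = 0.00061), and Nlrp1b and Nlrp1a were at 1.53 and 1.44. Of 18 triggers and regulators, 4 rose and 2 fell, with Nfkb1 at 2.62 and Panx1, a channel for ATP, at -2.71. Of 5 genes in the IL-1 and IL-18 list, 2 rose and 2 fell. Il1b rose by 3.74, to 13.2 CPM in WT and 40.8 CPM in cKO, while Il1rn was at -1.99 and Il18 at -1.47, all 3 past the threshold. Of 13 other death genes, 1 rose (Casp6, 2.34) and 2 fell (Dfna5, which encodes gasdermin E, -2.20, and Mlkl, the necroptosis effector, -1.52). Of 7 guanylate-binding proteins and relatives, 1 was called, Gbp2b, with 0 counts in NT and 4 and 11 counts after IL-4.

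Across the 3 treatments together, none of the 7 genes was called different between cKO and WT by edgeR. In the additive fit, edgeR called 0 of 13074 genes higher or lower (0.0% each), with 403 at an unadjusted p under 0.05. Without the filter on low counts edgeR called 32 genes, and DESeq2 called 40. The fitted log2 fold change was 0.58 ± 0.21 for Nlrp3 (SE, adjusted p = 0.999) and between -0.17 and 0.11 for the other 6. With 1 library left out Nlrp3 ranged from 0.34 to 0.82, and without the WT or the cKO IL-4 library Casp4, at -0.38, lay farther from 0 than Nlrp3, at 0.34. This fit takes 1 genotype effect for all treatments, whereas the ratios of single libraries changed sign between treatments for 5 of the 7 genes. For Aim2 limits lay below 0 in NT and above 0 after IL-4, for Casp1 and Casp4 they lay below 0 in NT and after LPS and above 0 after IL-4, and for Nlrc4 and Pycard the ratios of the turned sign had limits that spanned 0. Those ratios have 1 library per side, so they carry limits of counting error (95% Clopper-Pearson, for the ratio without a pseudocount) and no p-value, and a gene is said to be past the fold at 1.2 on the CPM plus 1 scale.

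Before treatment, 4 of the 7 genes were lower past the fold in the cKO library. Casp4 (15.3 against 20.8 CPM in WT), Aim2 (16.9 against 22.5), Nlrc4 (6.99 against 9.08) and Gsdmd (59.4 against 71.7) were these genes. Their log2 ratios were -0.42, -0.39, -0.33 and -0.27, and the limits of each lay below 0. Under median-ratio scaling Gsdmd was at -0.25, within the fold, which left 3 genes lower. Pycard was higher past the fold, at 90.9 against 68.6 CPM (log2 ratio 0.40, limits 0.31 to 0.50). Nlrp3 (0.07) stayed within the fold, as did Casp1 (-0.09), whose limits of -0.18 to -0.0037 also lay below 0. On deposited TPM, where the median gene was at -0.20, Casp1 passed it at -0.35. Thus 1 gene was past the fold upwards and 4 downwards, where 25.0% of 12463 genes were higher and 29.0% lower by this rule (3115 and 3614 genes). On deposited TPM 1552 genes were higher and 5491 lower, with 1 and 5 of the 7 among them.

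After LPS, Nlrp3 was the 1 gene of the 7 higher past the fold in cKO, at 123 against 80.2 CPM. Its log2 ratio was 0.62 (limits 0.54 to 0.71), and 3.71% of genes had a higher ratio. Casp4 was lower past the fold, at 229 against 281 CPM (-0.29, limits -0.35 to -0.24). Casp1 at -0.22 and Gsdmd at -0.17 were lower with limits below 0 but within the fold, while the limits of Aim2 (-0.04), Nlrc4 (0.21) and Pycard (-0.01) spanned 0. By this rule 22.6% of 12386 genes were higher and 13.3% lower. On deposited TPM the ratio of Casp4 was -0.23, within the fold, and Nlrp3 was the 1 gene past it.

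After IL-4, 4 of the 7 genes were higher past the fold in the cKO library. Nlrp3 was at 97.1 CPM against 46.2 CPM in WT, a log2 ratio of 1.06 (limits 0.97 to 1.17) that 1.31% of genes exceeded. Casp4 was at 47.1 against 31.4 CPM (0.57, limits 0.46 to 0.71), Casp1 at 107 against 78.2 CPM (0.44, limits 0.37 to 0.53) and Aim2 at 40.9 against 31.7 CPM (0.36, limits 0.24 to 0.50). For Nlrc4 (0.13), Gsdmd (-0.03) and Pycard (-0.04) the limits spanned 0. Over 13245 genes, 17.3% were higher and 13.4% lower past the fold. On deposited TPM, Nlrc4 and Aim2 had larger ratios after IL-4, 0.75 and 0.83, so for Nlrc4 the unit decides whether it passes the fold. The neutrophil markers were also higher in the cKO library, 514 against 382 CPM, and the 5 LPS response markers summed to 238 CPM in cKO against 62.5 CPM in WT. Their part in these ratios was not tested.

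**Figure D2:**
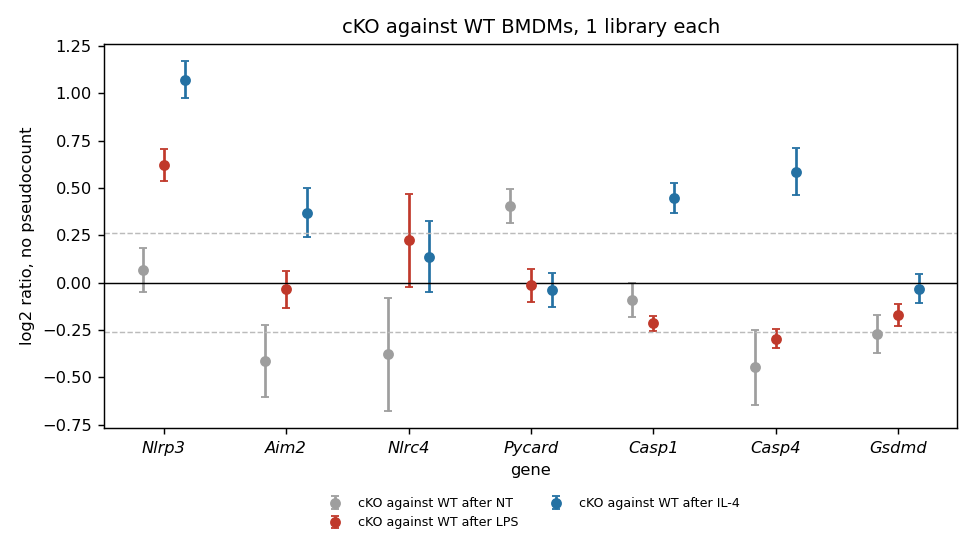
Log2 ratio of CPM without pseudocount, cKO against WT, for each gene after NT, LPS and IL-4, with bars for 95% limits of counting error and dashed lines at a fold of 1.2. Nlrp3 lies near 0 in NT and at 0.62 and 1.07 after LPS and IL-4, and Casp4 and Aim2 lie below 0 in NT and above 0 after IL-4.

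All 5 lists, like the 7 genes, had medians below 0 in NT and above 0 after IL-4. The median over all genes had the same signs, at -0.014 and 0.009, and that of triggers and regulators after IL-4, at 0.018, lay near it. In NT, 6 of 6 tested guanylate-binding proteins and relatives were lower in cKO past the fold, with a median log2 ratio of -1.88 against -0.01 over all genes. Gbp7 (6.86 against 34.0 CPM), Gbp3 (8.54 against 39.3) and Gbp5 (4.56 against 21.1) led at -2.15, -2.08 and -1.99. After IL-4, 6 of 6 tested were higher, with a median of 1.30, and Gbp5 was at 89.2 against 24.2 CPM (1.84). After LPS the median was 0.08, with 2 of 7 higher and 0 lower. Of 24 other sensors and nucleators, 19 were lower and 0 higher in NT (median -1.09), 3 lower and 1 higher after LPS (median 0.00), and 3 lower and 15 higher after IL-4 (median 0.54). Ifi213 led in NT at 11.0 against 89.4 CPM (-2.91), and Ifi205 led after IL-4 at 126 against 41.4 CPM (1.58).

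In NT and after IL-4 the medians were -0.27 and 0.02 for triggers and regulators, -0.14 and 0.11 for other death genes and -0.13 and 0.83 for the IL-1 and IL-18 list. Of 18 triggers and regulators, 9 were lower and 2 higher in NT, with Irf1 at 31.8 against 59.0 CPM (-0.87), and 3 were lower and 4 higher after IL-4. After LPS 2 were lower and 5 higher. In NT 25.0% of all genes were higher and 29.0% lower by this rule. The counts after LPS and IL-4 lay near the shares of all genes, 22.6% higher and 13.3% lower after LPS and 17.3% and 13.4% after IL-4. Among those past the fold after LPS were P2rx7, the ATP-gated channel that drives NLRP3 activation, at -0.66 and Nfkb1 at 0.50. Other death genes were split in NT (5 lower and 4 higher of 12) and were lower past the fold in 5 of 13 after LPS, led by Ripk3, the necroptosis kinase (-0.66). Zbp1 led that list in NT, at 34.6 against 129.5 CPM (-1.87), and after IL-4, at 1.00. In the IL-1 and IL-18 list, Il1b was higher in cKO after LPS, at 177 against 65.3 CPM (1.42, limits 1.35 to 1.52), and after IL-4, at 40.8 against 13.2 CPM (1.56, limits 1.46 to 1.80). Il1a was higher too, at 0.63 after LPS and 1.38 after IL-4. All 5 of 5 were higher past the fold after IL-4.

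**Figure D3:**
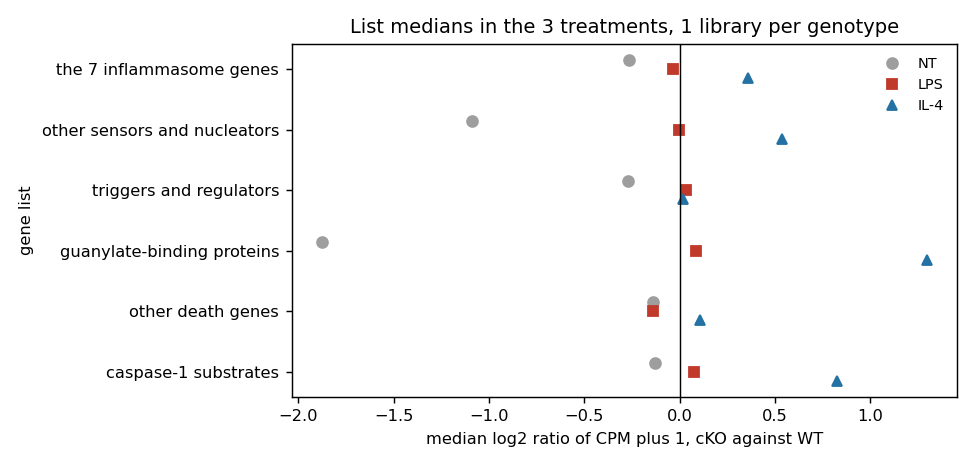
Median log2 ratio of CPM plus 1, cKO against WT, for the 7 genes and 5 lists of neighbouring genes in NT, LPS and IL-4, 1 library per genotype and treatment. Guanylate-binding proteins lie at -1.88 in NT, 0.08 after LPS and 1.30 after IL-4, and the 7 genes at -0.27, -0.04 and 0.36. The list labelled caspase-1 substrates holds Il1b, Il18, Il1a, Il1rn and Il18bp.

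In the libraries labelled Raw264.7, Pycard split the 6 libraries into a set with the adaptor and a set nearly without it. The 3 p65 libraries held 6 reads of Pycard in p65 KO, 15 with WT p65 and 14 with K122R, or 0.397 to 0.958 CPM. The 3 Zmynd8 libraries held 2522 reads in Zmynd8 KO, 2330 with WT Zmynd8 and 1655 with D/E-A, or 92.3 to 127 CPM. Raw264.7 is known as a line that lacks ASC. Nlrc4 was also lower in the p65 libraries, at 1.98 to 3.64 CPM against 15.3 to 21.4 CPM. Casp1 (110.0 to 128 against 218 to 334 CPM), Casp4 (95.4 to 114 against 233 to 270.2 CPM) and Gsdmd (81.2 to 122.3 against 249 to 294 CPM) were lower by less. Aim2 was higher in the p65 libraries, at 108 to 121 against 55.6 to 81.6 CPM, and Nlrp3 overlapped, at 205 to 363 against 167 to 299 CPM. These CPM come from tables the authors normalized separately, and the knocked-out gene, the neutrophil and B cell markers and Xist differ between the same sets, so these cannot be told apart. In the bulk RNA of these libraries, fewer cells of a type and less RNA per cell cannot be told apart either.

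**Figure D4:**
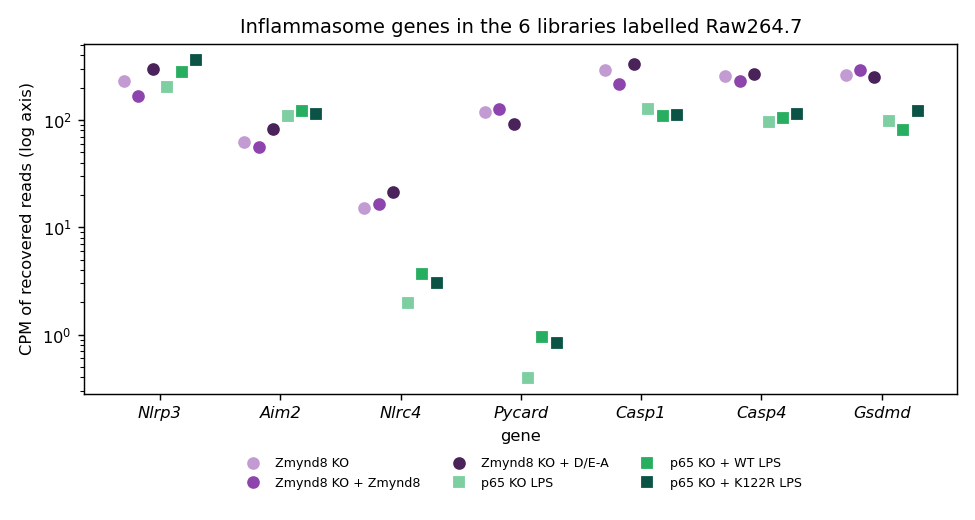
CPM of recovered reads (log axis) of the 7 genes in the 6 libraries labelled Raw264.7, 1 point per library, circles for Zmynd8 KO with and without rescue and squares for p65 KO with and without rescue. Pycard lies at 92.3 to 127 CPM in the Zmynd8 libraries and below 1 CPM in the p65 libraries.

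With the D/E-A mutant in place of WT Zmynd8, 4 of the 7 genes were higher and 1 lower past the fold. Nlrp3 was at 5480 against 3000.4 on the deposited scale, reads divided by a size factor, a log2 ratio of 0.87 (limits 0.80 to 0.93). Casp1 was at 6135 against 3920 (0.65, limits 0.59 to 0.70), Aim2 at 1497 against 998.5 (0.58, limits 0.47 to 0.70) and Nlrc4 at 393 against 298 (0.40, limits 0.18 to 0.62). Pycard was lower, at 1694 against 2276 (-0.43, limits -0.52 to -0.33), and Casp4 (0.24) and Gsdmd (-0.21) stayed within the fold. Of 12771 genes listed, 36.7% were higher and 35.9% lower by this rule (4686 and 4585, or 3347 and 5464 by library totals without the 18S-like entries). The Zmynd8 KO library without rescue, compared in another table that shares the WT Zmynd8 library, had 2 genes higher and 0 lower. Nlrp3 was at 4619 against 3202 (0.53, limits 0.46 to 0.59) and Casp1 at 5942 against 4184 (0.51, limits 0.45 to 0.56), while 33.8% of 21302 genes were higher and 36.5% lower (7196 and 7782, or 4386 and 5827 by library totals). The other 5 were between -0.10 (Gsdmd) and 0.23 (Aim2). For these libraries, library totals means CPM plus 1, where the added 1 weighs more reads than on the deposited scale. Counts past the fold by library totals therefore differ by this as well as by scaling.

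The makeup of these libraries moved with the same comparisons. Neutrophil markers (8 of 8 listed, none at 0) summed to 10353 CPM with WT Zmynd8, 6966 CPM in Zmynd8 KO and 4422 CPM with D/E-A. Macrophage markers (7 of 7) went the other way, at 4289, 5637 and 8682 CPM. The 5 LPS response markers summed to 3732, 5592 and 7086 CPM, but they did not move as 1 group, since Nos2 (500.0, 1206 and 2739 CPM) was higher while Tnf (421, 343 and 305 CPM) and Il12b (152, 97.2 and 80.8 CPM) were lower. The 18S-like entry Rn18s-rs5 took 13.7%, 11.1% and 6.50% of reads. The part of each in the ratios was not tested. Scaled to library totals without the 18S-like entries, which put the median gene at -0.15 with D/E-A and at -0.08 in Zmynd8 KO, Nlrp3 was still higher, by 0.68 with D/E-A and 0.40 in Zmynd8 KO, Gsdmd passed the fold at -0.39 with D/E-A, Nlrc4 came within it at 0.21, and Casp1 was at 0.46 and 0.38.

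Guanylate-binding proteins and relatives were higher in both comparisons, 6 of 6 listed with D/E-A (median log2 ratio 0.90) and 6 of 7 in Zmynd8 KO (0.49), against medians of 0.02 and -0.03 over all genes. Gbp3 was at 1.11 and 0.88 and Gbp2 at 1.06 and 0.81. Of 18 triggers and regulators, 13 were higher and 2 lower in each, and Tnfaip3, a brake on NF-κB, was at 24403 against 9230 with D/E-A (1.40) and at 0.95 in Zmynd8 KO. Pstpip1, which binds pyrin, was lower with D/E-A (-1.15). Casp8, an initiator of cell death, was at 1.03 and 0.85, and Dfna5 was at -1.25 with D/E-A. Other sensors split, with 11 higher and 5 lower of 19 with D/E-A and 11 higher and 8 lower of 22 in Zmynd8 KO, and Nod1, a sensor of bacterial cell wall, was at 1.09 and 0.69. Among genes of that list with a mean deposited value of 10 or more, the largest differences were downwards. They were Nlrp1b (-1.34) and Nlrx1 (-1.11) with D/E-A and Nlrp12 (-0.84) in Zmynd8 KO. Nlrp12 had 22 against 37 reads, with wide limits of -1.70 to -0.07. Of 5 genes in the IL-1 and IL-18 list, 2 were higher and 0 lower with D/E-A, Il1a at 0.77 and Il1rn at 0.41, while Il1b was within the fold at 22187 against 24370 (-0.14). Against 36.7% of all genes higher with D/E-A and 36.5% lower in Zmynd8 KO, the IL-1 and IL-18 genes higher with D/E-A and the other sensors lower in Zmynd8 KO were near the background.

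**Figure D5:**
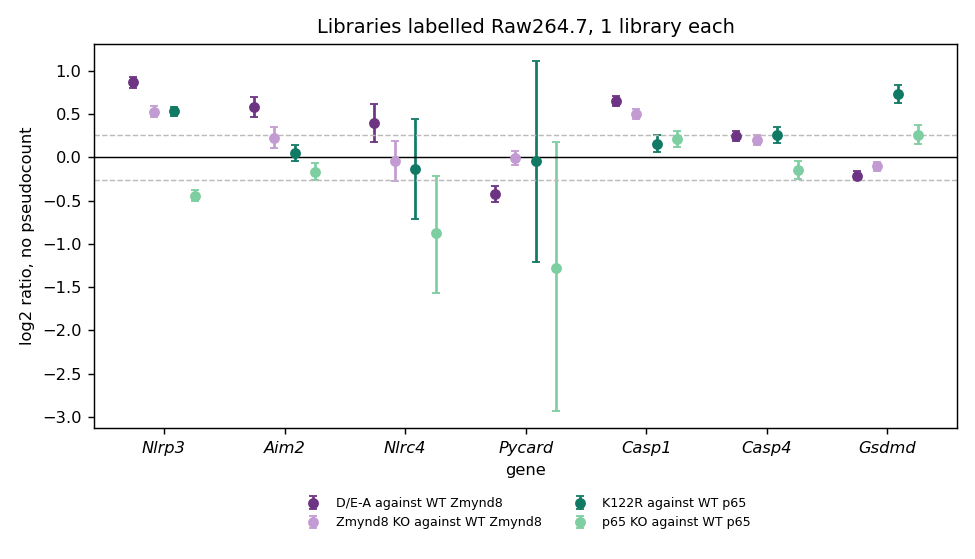
Log2 ratio of the deposited values without pseudocount for 4 comparisons of libraries labelled Raw264.7, with bars for 95% limits of counting error and dashed lines at a fold of 1.2. Nlrp3 lies above 0 for D/E-A (0.87), Zmynd8 KO (0.53) and K122R (0.53) and below 0 for p65 KO (-0.44), and the wide bars of Pycard and Nlrc4 in the p65 libraries come from 6 to 57 reads.

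With K122R in place of WT p65 after LPS, Nlrp3 and Gsdmd were higher past the fold. Nlrp3 was at 6167 against 4270 on the deposited scale (log2 ratio 0.53, limits 0.47 to 0.59) and Gsdmd at 2075 against 1248 (0.73, limits 0.63 to 0.84). Casp4 (0.26), Casp1 (0.16) and Aim2 (0.05) were within the fold, where 30.8% of 19670 genes were higher and 32.5% lower. Library totals gave 0.39 for Nlrp3 and 0.58 for Gsdmd, on a scale where 2747 genes were higher and 6029 lower against 6051 and 6402. In p65 KO, which shares the WT p65 library, 0 genes were higher and 3 lower past the fold, against 26.3% and 25.7% of 19879 genes (5222 and 5103, or 2921 and 3033 by library totals). The median gene was at 0.0098 on the deposited scale and at 0.0031 by library totals, so scaling moved it little, while the added 1 differs as described above. Nlrp3 was at 3150 against 4279 (-0.44, limits -0.51 to -0.38) and Nlrc4 at 30 against 57 reads (-0.86, limits -1.57 to -0.21). Pycard was at 6 against 15 reads (-1.15, or -0.49 by library totals), with limits that spanned 0. Casp1 (0.21) and Gsdmd (0.26) leaned upwards within the fold, and Casp4 (-0.15) and Aim2 (-0.17) downwards. Neutrophil markers were at most 0.319 CPM in these libraries. The 5 LPS response markers summed to 2906 CPM with K122R, 2116 CPM with WT p65 and 1895 CPM in p65 KO. Il6, Tnf and Cxcl10 followed the order of the sum, but Nos2 (583, 218 and 255 CPM) and Il12b (0.54, 3.32 and 2.45 CPM) did not. Zmynd8 was at 64.2, 116.6 and 107 CPM and Ddx3y at 109, 25.5 and 44.8 CPM in that order. Their part in the ratios was not tested.

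Around them, guanylate-binding proteins were higher with K122R (5 of 7, median 0.50) while 2 of 7 were lower past the fold and 0 higher in p65 KO (median -0.25), a share near the 25.7% of all genes. That share counts genes down to a mean deposited value of 1, and by library totals fewer genes (3033 against 5103) were lower. Of 20 other sensors, 14 were higher and 1 lower with K122R and 1 higher and 7 lower in p65 KO, and Ifi205 was at 0.68 and -0.55. Il1rn was higher in both, at 2.35 with K122R and 1.06 in p65 KO, and P2rx7 likewise at 1.46 and 1.59. Il1a was lower in p65 KO, at 31653 against 52941 (-0.74). The Rela value itself, which this set of libraries was built to change, differed by 1.92 with K122R and by -1.02 in p65 KO.

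By their pattern over the 6 BMDM libraries, 4 of the 7 genes moved closely together. The values are a description, with no test, over libraries that share treatments. Casp1, Casp4, Gsdmd and Aim2 had Pearson correlations of log2(CPM + 1) of 0.90 to 0.99 with each other. Nlrp3 had 0.70 to 0.80 with these 4, Pycard had 0.35 to 0.63 and Nlrc4 had 0.01 to 0.44, with -0.45 between Nlrc4 and Pycard. The genes most like Nlrp3 were Tnf (r = 0.96), Cyfip1 (0.96) and Serp1 (0.96). For Casp4 they were Csprs, Psme2 and C130026I21Rik (0.999 for each), for Gsdmd B2m (0.999), Tmem50b (0.998) and 1600014C10Rik (0.998), for Casp1 Max (0.999), Tpx2 (0.998) and Lhx2 (0.998), and for Aim2 Slco3a1 (0.999), Mfsd8 (0.998) and Fgl2 (0.998). Nlrc4 was closest to Rassf4 (0.998), Acadsb (0.995) and Zc3h12c (0.994), and Pycard to mt-Tp (0.979), Fam3b (0.975) and Bsg (0.968).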

How the data were processed

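Polyadenylated RNA was sequenced, and the study's methods name TopHat and the mouse transcriptome of mm10 for the alignment. The submitters' processing notes also list CASAVA 1.4, Bowtie 0.12.2 and the builds mm8 and mm10, with no roles, and the tool that counted reads is not given in the sources used here. For BMDMs the authors deposited estimated counts (75.2 to 76.6% of the values above 0 were whole numbers) and TPM, which the authors divided by transcript length. For the libraries labelled Raw264.7 the deposited signal is reads per gene divided by a size factor. Dividing by the value of 1 read gave whole reads, within 0.1, for 100% of values in 5 libraries and for 99.9958% in Zmynd8 KO. The table with D/E-A lists 12771 genes, so its WT Zmynd8 reads were scaled from the other table. Columns of the authors' own fold changes and p-values were not used, and 2 columns of values that match no sample were left out. Entries that name no gene were left out of totals and tests.

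Estimated counts were rounded, genes averaging under 10 counts were dropped, and an additive model of genotype and treatment was fitted over the 6 BMDM libraries with edgeR 4.0.16 (R 4.3.3, quasi-likelihood, TMM, Benjamini-Hochberg adjusted p under 0.05). It has 2 residual degrees of freedom, and the p-values rest on both genotypes having the same response to treatment. Each library is 1 pool, so p-values measure the spread between these libraries alone. The code was tested on simulated data. Single libraries were compared by log2(value + 1), a fold of 1.2 and 95% Clopper-Pearson limits, which cover counting error only. Genes tested averaged 10 counts or more in the 2 libraries (BMDM) or a deposited value of 1 or more (libraries labelled Raw264.7). The shares of all genes in the libraries labelled Raw264.7 therefore include genes of a few reads. Treatment ratios within a genotype used TMM scaling. An exact binomial test of the recovered reads of each pair of libraries, which compares those libraries and not the conditions, called 7841 genes for D/E-A, 6683 for Zmynd8 KO, 5219 for K122R and 2620 for p65 KO past the fold. In that order it called 5, 2, 2 and 2 of the 7 genes. DESeq2 1.42.0 was an alternative, as were other scalings, filters, pseudocounts and folds and each library left out. Promoters came from RefSeq (GRCm38.p6).

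The 7 genes and the lists were chosen with earlier results of these data known. From each list the 3 genes with the largest absolute log2 value in a comparison are named, among those averaging 100 counts or more (BMDM) or a deposited value of 10 or more. A few genes that this rule would name are not reported here.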

Additional observations from a re-analysis of the deposited data

Results flagged for a closer look

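With 1 library per genotype and treatment, differences between effects were not tested, and each is given for its size alone. After IL-4, Nlrp3 moved by -0.25 in WT and 0.70 in cKO on the log2 scale with TMM scaling, a gap of 0.945 with the directions opposed. Casp1 moved by -0.28 in WT and 0.22 in cKO, a gap of 0.4931. The ratio of cKO to WT lay on both sides of 0 over NT, LPS and IL-4 for 5 genes, with limits clear of 0 on both sides for Aim2, Casp1 and Casp4 and not for Nlrc4 and Pycard. Between the highest and the lowest of the 3 ratios there was 0.9959 for Casp4, 0.7524 for Aim2, 0.6572 for Casp1, 0.5409 for Nlrc4 and 0.4401 for Pycard. These differences were not tested, and whatever the separate sample numbers of the IL-4 libraries mark cannot be told apart from IL-4.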

How the results depend on the processing

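Of 210 fitted changes of single genes under an alternative 18 had another sign than the reported value, and of 224 ratios between lines or genotypes 5 did, none of them past a threshold. Library totals turned Casp1 for IL-4 to 0.15 and Nlrc4 for cKO to 0.0022. With 1 library left out, the fitted IL-4 changes ranged from -0.13 to 0.59 for Nlrp3 and from -0.32 to 0.27 for Casp1. The cKO changes ranged from 0.34 to 0.82 for Nlrp3, -0.23 to 0.13 for Aim2, -0.10 to 0.15 for Nlrc4, -0.058 to 0.19 for Pycard, -0.16 to 0.19 for Casp1 and -0.38 to 0.11 for Casp4. On deposited TPM the ratio of cKO to WT turned for Nlrp3 in NT (-0.17) and for Aim2 (0.05) and Pycard (0.12) after LPS, and on library totals Aim2 with K122R turned to -0.09, or -0.08 without the 18S-like entries. At a fold of 2 in place of 1.2, the members past the fold numbered 0 in NT, 0 after LPS and 1 after IL-4 (Nlrp3), and 0 for D/E-A, 0 for Zmynd8 KO, 0 for K122R and 1 for p65 KO (Pycard, 6 against 15 reads). On deposited TPM 1 gene passed after LPS. The genes called for IL-4 were 2718 and ranged from 1541 to 4422 with 1 library left out, at 4422 without WT NT, 1582 without WT IL-4 and 1541 without cKO IL-4. The genes called for cKO were 0 by edgeR, 32 without the filter, 40 by DESeq2 and 5 to 24 with 1 library left out, highest without WT LPS at 24. The causes were not tested. Leaving out a library leaves its condition empty or a treatment with 1 library, which is then assumed to vary like the others. Library totals in place of TMM were chosen after seeing the data, as were the totals without 18S-like entries and the binomial test. Of the fitted changes of single genes, 12 came past the threshold under an alternative and 6 fell short of it. With 6 to 57 reads of Pycard and Nlrc4 in the p65 libraries, their ratios there have wide limits.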
